A study of Rattus norvegicus with 8 samples.

Results

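The alpha-2u globulins are small secreted carrier proteins, and 4 rows of the count table on rat chromosome 5 that belong to their gene cluster are described here: Obp3, Mup4, Mup4-ps3 and Mup4-ps5. They were chosen by gene symbol out of 30562 rows, with their high counts in the livers of rats given hexachlorobenzene (HCB) already known, so the HCB comparisons describe the choice and carry no test. RNA was sequenced from the livers of 8 male Wistar rats that weighed 160 g at the start, 2 separate animals from each of 4 groups of 5, and all were killed on day 37. Control rats received vehicle. HCB rats received 100 mg/kg of HCB, a chlorinated fungicide and persistent pollutant, by gavage 3 times per week for 30 days. Atorvastatin (AT) rats drank water with the cholesterol-lowering statin, dosed per the labels at 5 mg/kg per day, and the AT + HCB rats received both agents. The same labels give a water recipe of 5 mg per rat and day, so the dose per body weight is uncertain. The 4 libraries of the HCB and AT + HCB groups are called HCB-labelled below, and the 4 of the control and AT groups unexposed.

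Alpha-2u globulins, the rat's counterpart of the mouse major urinary proteins (Mup), are lipocalins: a barrel-shaped fold with an inner pocket that holds small fatty ligands. Adult male rat liver makes them in large amounts, from where they pass through the blood into the urine and carry pheromones. Their liver transcription is known to need androgen and the pulsed growth hormone pattern of adult males, and to be modulated by thyroid hormone, glucocorticoid and insulin. The genes are a tandem array of near-identical copies and pseudogenes, which bears on every count given here.

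The labels and the data disagree on the animals. The summed level of 5 Y-linked genes was 1.99 to 3.99 CPM (counts scaled to 1e6 of normalised library size) in the unexposed libraries and 136 to 217 CPM in the HCB-labelled ones. Ddx3y among them did not follow, at 1.59 CPM in control, 1.61 in AT, 0.787 in HCB and 1.61 in AT + HCB. Genes of fetal liver, 5 in all with the fetal serum protein Afp among them, summed to 37451 to 51247 CPM in the unexposed and 148 to 333 CPM in the HCB-labelled libraries. All 9 hepatocyte markers had reads in both, at a sum of 93133 to 181508 and 141784 to 218381 CPM. Single markers differed: in HCB against control, 3 of the 9 rose and 1 fell by edgeR, where 13% of all genes rose and 13.9% fell. Neutrophil markers summed to 129 to 218 CPM in unexposed and 0.401 to 3.17 CPM in HCB-labelled libraries, and erythroid markers to 1850 to 4613 and 284 to 1284 CPM. The share of alignments outside annotated exons was 15.3% to 34.0% in unexposed and 7.46% to 11.4% in HCB-labelled libraries, with no overlap, and its part in the differences below was not tested. An effect of HCB therefore cannot be told apart from these differences between the libraries. In bulk liver, fewer cells of a type and less RNA per cell cannot be told apart either.

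The cluster spans 739.3 kb of chromosome 5 in the authors' build, mRatBN7.2, and holds 12 rows, all on the minus strand. Obp3 (ENSRNOG00000065108, chr5:74842316-74845757), an odorant-binding lipocalin of the family, has 1006 exonic bases. The Mup4 row (ENSRNOG00000063113, chr5:74842319-75061474) has 2800 exonic bases spread over more than one gene copy: its span overlaps that of Obp3, and 258 of its exonic bases are also exonic in Obp3. Mup4-ps3 (ENSRNOG00000070480, chr5:75394120-75472538, 1603 exonic bases) and Mup4-ps5 (ENSRNOG00000066917, chr5:75578870-75581660, 1134 exonic bases) are listed as protein coding in the count table and as pseudogenes in RefSeq. Mup4-ps5 shares no exonic base with another row and Mup4-ps3 shares 28 with Mup4-ps1.

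Overlap of annotated exons decides what could be counted. The authors' counting left out reads that fell on exons of more than 1 row and reads that aligned to several places, so 25.65% of the exonic bases of Obp3 and 45.43% of those of Mup4 could give no count. LOC259244, a coding gene of the cluster whose 1272 exonic bases all lie within the exons of Mup4, had 0 reads in every library, as its exons allow no other result. Most of the reads of the cluster went to LOC298116 (ENSRNOG00000067602, chr5:75142157-75564845), a row of 38 exon blocks that is not among the 4 members. The members held 2.35% to 9.67% of the cluster's reads, and Obp3 alone 86.7% to 98.1% of the members' reads.

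RefSeq, on the later build GRCr8, lists 33 entries of any symbol from Obp3 to Mup4-ps5, more than the 12 rows of the table. Of these, 7 protein-coding genes and 8 pseudogenes have a Mup or Obp symbol. A promoter window of 250 bases before to 50 after the transcript start was given for Obp3 and Mup4. The upstream sequences of both are shown because they make plain how alike the copies are: 224 aligned bases are identical, 7 differ and 2 are absent from Mup4. Capitals mark the bases that differ or are absent from the other gene. Each runs 5′ to 3′ on the minus strand of GRCr8 and ends at the base before the RefSeq start of Obp3 (chr5:79640676-79640908) or the base aligned with it in Mup4 (chr5:79759516-79759746).
Obp3: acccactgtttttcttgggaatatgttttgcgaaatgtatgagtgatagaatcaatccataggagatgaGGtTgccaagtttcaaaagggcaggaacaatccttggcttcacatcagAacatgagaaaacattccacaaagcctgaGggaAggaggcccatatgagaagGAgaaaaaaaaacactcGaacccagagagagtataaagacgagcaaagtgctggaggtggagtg
Mup4: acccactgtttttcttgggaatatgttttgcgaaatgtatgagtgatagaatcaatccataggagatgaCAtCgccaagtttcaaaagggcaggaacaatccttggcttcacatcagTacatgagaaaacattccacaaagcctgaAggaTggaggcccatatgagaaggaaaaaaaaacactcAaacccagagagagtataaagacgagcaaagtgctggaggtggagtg
Over the whole windows Obp3 was 97.2% identical to Mup4, 97.5% to Mup5, 94.3% to Mup4l3, 94.2% to Mup4l1 and 93.5% to Mup4l4 in the bases aligned, and 79.0% to Mup18.

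A search of both strands for 4 short motifs described these windows further. TATAAA, the TATA box, began at −33 in Obp3 and at −52 in Mup4, counted from −1 at the base before each annotated start, at the same place of the alignment. It was present in 6 of the 7 family windows and in 14.2% of all 33469 RefSeq windows of the same length. ATTGAT, the core of the site for the liver factor ONECUT1, was in 6 of the 7 and in 8.06% of all windows. TGTTCT, the half-site of the glucocorticoid receptor, occurred on the opposite strand of Obp3 (as AGAACA) with its first base at −238 and −118, and not in the Mup4 window. The first of these starts before the part that both windows hold and reaches only the first base of that part. The second contains a base that differs. This half-site was in 20.7% of all windows. TTCNNNGAA, the palindrome of STAT5, was in neither and in 8.87% of all windows. In these 2 windows no match overlapped another, and a match is a description of the letters only.

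Obp3 was high in the HCB-labelled libraries and low in the unexposed ones. It had 61 and 73 reads in the control libraries and 194 and 186 in the AT libraries. In the HCB libraries it had 72569 and 13460 reads, and in the AT + HCB libraries 92801 and 29179. Every HCB-labelled library was above every unexposed one, with no overlap. In CPM these are 1.55 and 1.73 in control, 4.65 and 3.86 in AT, 2298 and 359 in HCB, and 2326 and 656 in AT + HCB. The group means were 811-fold higher in HCB than in control and 351-fold higher in AT + HCB than in AT. By reads, Obp3 ranked from 60 to 348 among the rows in HCB-labelled libraries and from 9888 to 12311 in unexposed ones.

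Mup4, the row named after a major urinary protein gene, was not detected in any unexposed library. With 0 reads in the control and AT groups and a floor of 6 reads over a group (3 read pairs, since mates were counted singly), its level was below 0.0735 and 0.0667 CPM there. The HCB libraries had 603 and 112 reads and the AT + HCB libraries 311 and 171. The HCB mean was therefore at least 150-fold above the control group's limit, and the AT + HCB mean at least 87.2-fold above that of AT. Only exonic bases outside LOC259244 and Obp3 could collect these reads.

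Mup4-ps3 and Mup4-ps5, which RefSeq lists as pseudogenes, gave counts in the same libraries. Mup4-ps3 had 0 and 0 reads in control, 2 and 2 in AT, 291 and 101 in HCB, and 375 and 139 in AT + HCB. The HCB mean was at least 81.0-fold above the control group's limit. From AT to AT + HCB the ratio was 140, with a counting interval of 39.0 to 1162 (95%, exact Poisson on read pairs of the AT group, counting error only). Mup4-ps5 had 4 and 5 reads in control, 5 and 7 in AT, 3991 and 1853 in HCB, and 1125 and 1120 in AT + HCB, which put the means 799-fold and 201-fold higher. For each of the 4 members the groups did not overlap. Over all 16591 genes that passed the filter on low counts, 21.8% had every HCB-labelled library above every unexposed one. In the fit over all genes, 26.9% of genes were called in HCB against control, 13% higher and 13.9% lower, and 27.6% in AT + HCB against AT, 12.6% higher and 15% lower. The members were chosen on this difference, and nothing is read from their place against these shares.

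**Figure D1:**
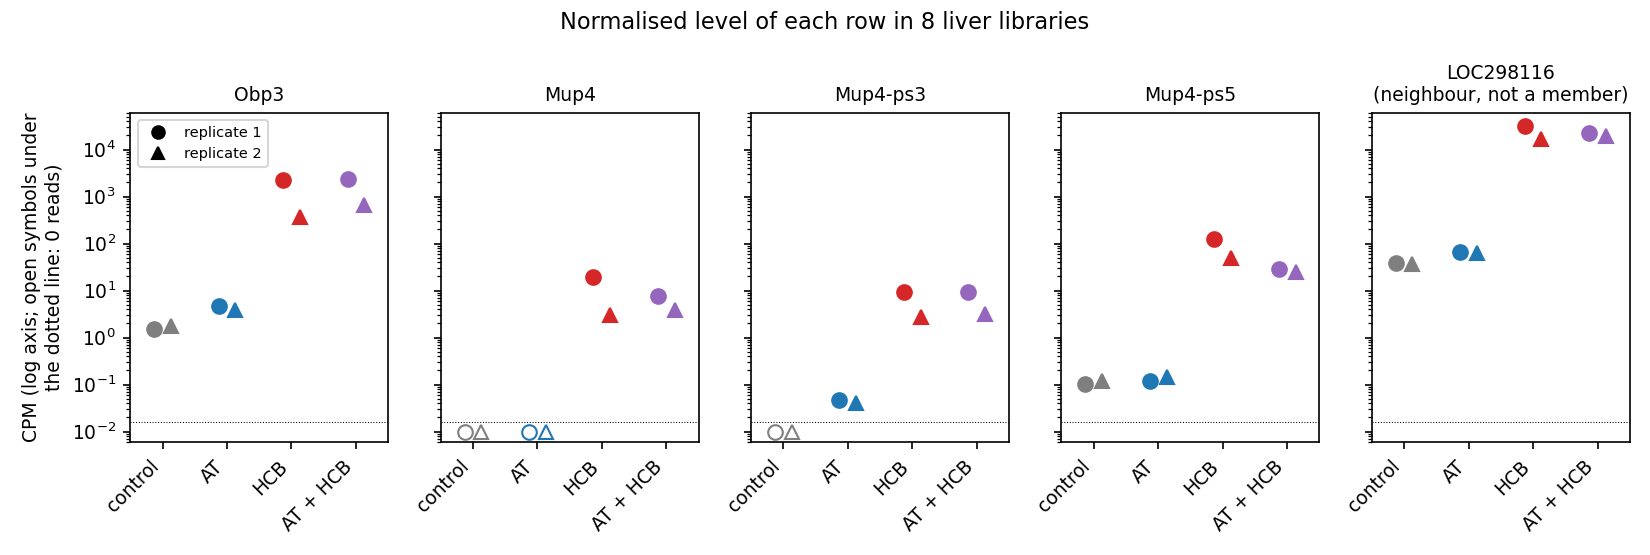
Level in CPM (log axis) of the 4 members and of LOC298116, the row with most reads of the cluster, in each of the 8 libraries; circles are replicate 1 and triangles replicate 2, and open symbols under the dotted line are libraries with 0 reads. All HCB and AT + HCB libraries lie above all control and AT libraries in each panel, and Obp3 spreads from 359 to 2326 CPM among them.

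Per length of exon that no other row shares, the order of the members in the HCB-labelled libraries was led by Obp3. It had 3072 and 481 CPM per kb in HCB and 3110 and 877 in AT + HCB. Mup4-ps5 followed with 111.4 and 43.6 CPM per kb in HCB and 24.9 and 22.2 in AT + HCB. Mup4 had 12.5 and 1.96 CPM per kb in HCB and 5.10 and 2.52 in AT + HCB. Mup4-ps3 was at 5.85 and 1.71 CPM per kb in HCB and at 5.97 and 1.99 in AT + HCB. Obp3 was above Mup4-ps5, and Mup4-ps5 above both others, in each library, whereas Mup4 and Mup4-ps3 overlapped. LOC298116 stood at 3030 to 5517 CPM per kb in the HCB-labelled libraries, above Obp3 in each.

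Other rows of the cluster were high in the same libraries. LOC298116 had 1488 and 1522 reads in control, 2754 and 2982 in AT, 988569 and 643676 in HCB, and 879974 and 854307 in AT + HCB. It ranked from 3 to 6 by reads in the HCB-labelled libraries. Mup4-ps1 had 2 to 11 reads in the unexposed and 989 to 2660 in the HCB-labelled libraries, and the unnamed row ENSRNOG00000069991 had 1 to 5 and 885 to 1977. AABR07048473.1 had 0 reads in each unexposed library and 24 to 84 in the HCB-labelled ones. Zfp37-ps1, Mup4-ps6 and Mup4-ps8 had at most 11 reads in any library. Together the 12 rows took 1.57% to 2.78% of the assigned reads in HCB-labelled libraries and 0.00383% to 0.0101% in unexposed ones.

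Genes next to the cluster did not share the difference as a group. Of 27 rows within 500 kb on either side, 21 passed the filter, and their median log2 difference between HCB and control was −0.16, beside −0.09 over all genes tested. Slc31a1 and Slc31a2, which encode copper transporters, rose in HCB by 1.61 ± 0.30 (SE, log2; edgeR quasi-likelihood test, Benjamini-Hochberg adjusted p = 0.00312) and by 0.90 ± 0.31 (adjusted p = 0.04998). Inip, Snx30 and RGD1310951 fell, by 0.93, 1.25 and 0.69 on the log2 scale (edgeR adjusted p = 0.0138, 0.0194 and 0.0489). The other 16 flanking rows tested were not called, where 26.9% of all genes were called in either direction. Zfp37, a zinc finger gene and the nearest tested row on the side of Mup4-ps5, differed by 0.35 ± 0.38 (edgeR adjusted p = 0.520). Between AT + HCB and AT, 1 of the 21 rose, 1 fell and the median was −0.11, where 27.6% of all genes were called and their median was also −0.11.

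**Figure D2:**
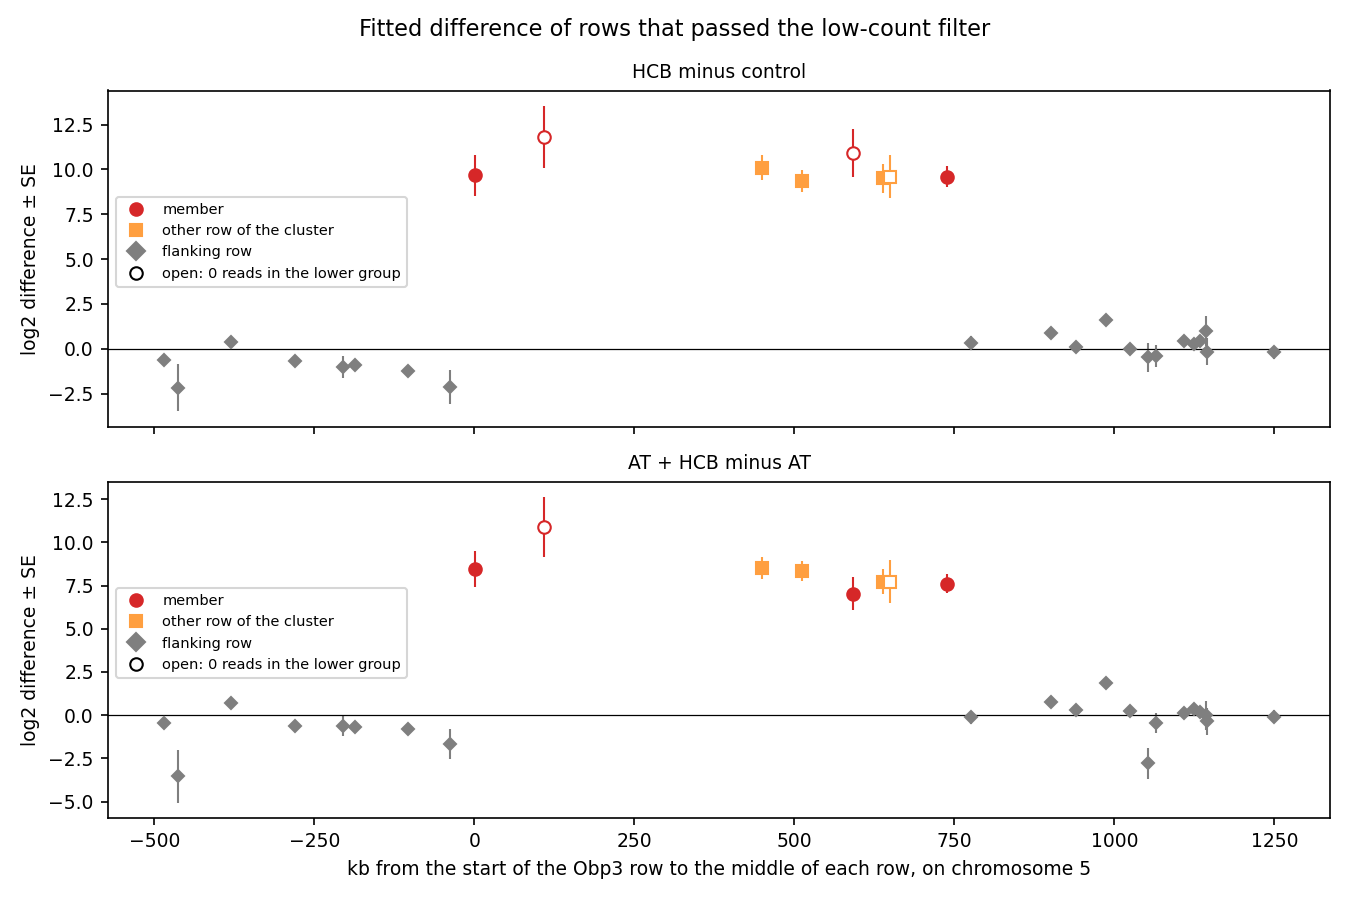
Fitted log2 difference with its SE against distance in kb from the start of Obp3, for HCB minus control (top) and AT + HCB minus AT (bottom). Red circles are members, orange squares other rows of the cluster and grey diamonds flanking rows; open symbols mark rows with 0 reads in the lower group, whose fitted value depends on the fit's prior count and is no bound. Rows inside the cluster lie at 7.04 or more, and flanking rows lie between −3.55 and 1.86.

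Family members elsewhere in the genome were near absent. The table has 2 rows called Obp1f, an odorant-binding protein, on chromosome X. One had 30 to 75 reads in HCB-labelled libraries and 0 to 6 in unexposed ones, and the other 4 to 35 and 0 to 2. Obp2a and Obp2b on chromosome 3 had 0 reads in each library.

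Obp3 differed widely between animals of the same group. Replicate 1 was 6.39 times replicate 2 in HCB and 3.54 times replicate 2 in AT + HCB. Among 7491 genes with a mean of at least 10 CPM in these libraries, the median gap was 1.30-fold in HCB and 1.12-fold in AT + HCB. A larger gap than that of Obp3 was found for 0.0934% of them in HCB and 0.481% in AT + HCB. Mup4 had gaps of 6.38 and 2.03 times and Mup4-ps3 of 3.42 and 3.01 times, in the same direction. Mup4-ps5 differed by 2.55 times in HCB and by 1.12 times in AT + HCB. The dominant row LOC298116 differed less, by 1.82 and 1.15 times. Of all alignments, 19.4% and 12.2% were multi-mapping in HCB 1 and 2 and 11.3% and 10.7% in AT + HCB 1 and 2. The part of multi-mapping in these gaps was not tested.

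Set against LOC298116 in the same library, Obp3 was not a fixed share of the cluster. Obp3 had 41.0 and 48.0 reads per 1000 reads of LOC298116 in control, 70.4 and 62.4 in AT, 73.4 and 20.9 in HCB, and 105 and 34.2 in AT + HCB. The HCB-labelled values enclosed the unexposed ones, with medians of 53.8 and 55.2. The ratio to its neighbour was thus spread between HCB-labelled animals, and not shifted one way from the unexposed ones. Mup4-ps5 had 2.69 and 3.29 reads per 1000 of LOC298116 in control, 1.82 and 2.35 in AT, 4.04 and 2.88 in HCB, and 1.28 and 1.31 in AT + HCB. The AT + HCB libraries were the lowest for Mup4-ps5. Its unexposed ratios rest on 4 to 7 reads per library. The share of all genes with such an order was not computed, so nothing is read from it.

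**Figure D3:**
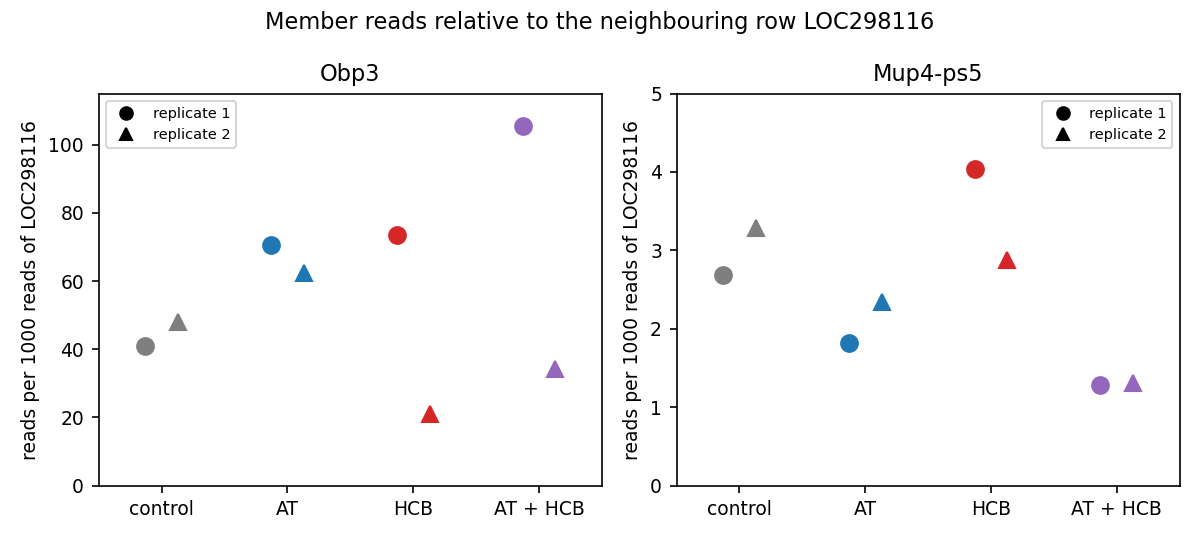
Reads of Obp3 (left) and Mup4-ps5 (right) per 1000 reads of LOC298116 in each library (linear axes from 0; circles replicate 1, triangles replicate 2). Obp3 runs from 20.9 to 105 in the HCB-labelled libraries around the unexposed values. Both AT + HCB libraries are lowest for Mup4-ps5, whose unexposed values rest on 4 to 7 reads each.

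Atorvastatin alone was compared with control to ask whether the statin moved the members in unexposed rats. Obp3 had a higher level in both AT libraries than in both control libraries, by 1.37 ± 0.84 on the log2 scale (SE; 95% interval −0.51 to 3.26; edgeR quasi-likelihood test, Benjamini-Hochberg adjusted p = 1), which did not pass. Of all genes tested, 10.6% likewise had both AT libraries above both control libraries. Mup4-ps5 differed by 0.27 ± 0.77, from 9 reads over the control libraries to 12 over the AT libraries, too few for a test to be read. Mup4 had no read in either group and Mup4-ps3 stayed under the floor of 6 reads in both, so neither has a fold. The sum of the 4 members differed by 1.34 ± 0.79 (95% interval −0.44 to 3.11; edgeR adjusted p = 1). The sum of all 12 rows of the cluster differed by 0.83 ± 0.44 (edgeR adjusted p = 1). No gene was called over the whole table (percent called 0); 181 genes, or 1.09%, had an unadjusted p under 0.05 by edgeR, and DESeq2 called 3 genes.

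Atorvastatin with HCB was compared with HCB alone to ask whether the statin changed what the HCB rats showed. Obp3 differed by 0.17 ± 0.77 (SE, log2; 95% interval −1.56 to 1.89; edgeR quasi-likelihood test, Benjamini-Hochberg adjusted p = 0.984), and the groups overlapped. With 2 animals a group and their spread, that interval holds both a fall and a rise. The sign rested on single animals: without HCB replicate 2 the Obp3 difference was −0.62, and without AT + HCB replicate 1 it was −1.01. Mup4 was at −0.92 ± 0.80 (edgeR adjusted p = 0.892), and at 0.96 without HCB replicate 1. Mup4-ps3 was at 0.07 ± 0.62 (edgeR adjusted p = 0.997), and at −0.55 without HCB replicate 2 and −0.92 without AT + HCB replicate 1. The sum of the members differed by 0.09 ± 0.73 (95% interval −1.54 to 1.72; edgeR adjusted p = 0.996) and that of all 12 rows by −0.21 ± 0.44 (edgeR adjusted p = 0.951).

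Mup4-ps5 was the member with the clearest difference between these groups. Its levels were 126 and 49.5 CPM in HCB and 28.2 and 25.2 CPM in AT + HCB, so both AT + HCB animals lay below both HCB animals. The log2 difference was −1.72 ± 0.36 (SE; 95% interval −2.52 to −0.92). It did not pass the test of the main fit (edgeR quasi-likelihood test, unadjusted p = 0.000603, Benjamini-Hochberg adjusted p = 0.553). DESeq2 called it (adjusted p = 0.0142), as did edgeR with no filter on low counts (adjusted p = 3.71e-06). The unfiltered fit called 179 genes over the whole table, where the main fit called 0. Mup4-ps5 stayed uncalled by edgeR with DESeq2 size factors (adjusted p = 0.564) and with a filter of 1 CPM in 2 libraries (adjusted p = 0.5745). The same held with the replicate block (edgeR adjusted p = 0.651) and with halved counts (edgeR adjusted p = 0.4975). The difference was −2.24 without HCB replicate 2 and −0.88 without HCB replicate 1. These are given as sizes only, with no call, because HCB then has a single library. Of all genes, 16.9% had both AT + HCB libraries below both HCB libraries. No gene was called by edgeR over the whole table (percent called 0); 857 genes, or 5.17%, had an unadjusted p under 0.05, and DESeq2 called 44.

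The interaction is the difference of atorvastatin's effect with HCB from its effect without. It was called neither for Obp3 nor for the summed members, and Mup4 and Mup4-ps3 had too few unexposed reads to give it. The value was −1.21 ± 1.13 for Obp3 (SE, log2, edgeR adjusted p = 1) and −1.24 ± 1.07 for the summed members (edgeR adjusted p = 1). For Mup4-ps5 the fitted value was −1.99 ± 0.86, but it rests on 9 reads over the control libraries and 12 over the AT libraries. Mup4-ps5 passed the low-count filter through the HCB-labelled libraries, so no test of its interaction is read. Over the whole table edgeR called no gene (percent called 0), 391 genes or 2.36% had an unadjusted p under 0.05, and DESeq2 called 5. The plot of the atorvastatin contrasts shows these intervals side by side.

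**Figure D4:**
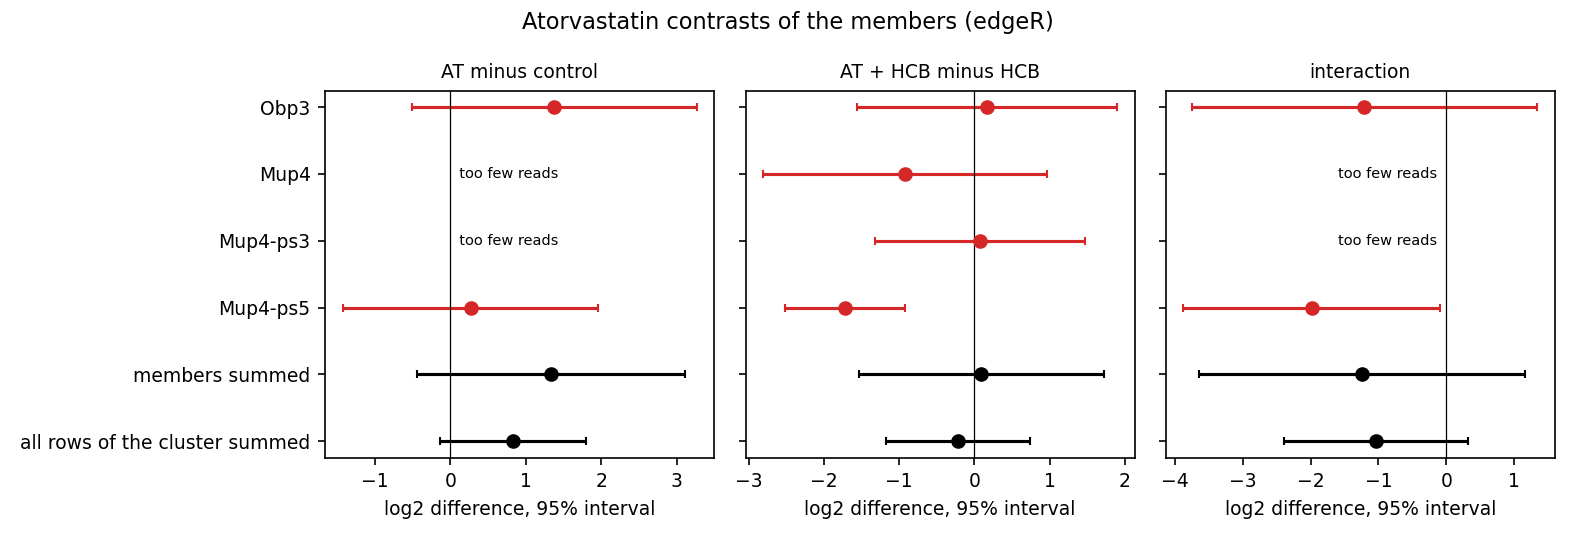
Log2 difference with its 95% interval (edgeR) for each member in red, and for the sums of the 4 members and of all 12 cluster rows in black, in 3 contrasts; the axes differ between panels. Intervals include 0 except for Mup4-ps5 in AT + HCB minus HCB, which did not pass after adjustment, and in the interaction. The latter rests on 9 control and 12 AT reads and is not read as a test. Mup4 and Mup4-ps3 have too few reads for 2 of the contrasts.

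Genes with a profile like that of the summed members were found by the root mean square difference of gene-centred log2 CPM over the 8 libraries, among 16561 genes outside the cluster, its flanks and the family. Dhrs7l1, a short-chain dehydrogenase gene, came first at 0.46, where the median over all genes was 4.49. Its levels were 0.762 and 0.379 CPM in control, 1.34 and 1.33 in AT, 885 and 295 in HCB, and 965 and 276 in AT + HCB. LOC100360095, Hsd3b5 (a steroid dehydrogenase of male liver), LOC120093108, LOC103693047, Rup2, Cyp2c11 (a male-specific cytochrome P450) and Ugt2b followed, at 0.60 to 0.73. The summed profile was nearly that of Obp3 alone (0.05). Mup4, Mup4-ps5 and Mup4-ps3 lay at 0.99, 0.98 and 1.22 from it, farther than these 8 genes. Hsd3b5 and Cyp2c11 kept a narrower spread within HCB than Obp3: 667 and 498 CPM, and 3441 and 3120 CPM. Over the 4 HCB-labelled libraries alone, among 7475 genes with a mean of at least 10 CPM there, Depp1 came first at 0.37 and Dhrs7l1 second at 0.38, against a median of 1.14. Gk, Olr59, Kynu, Gckr, Amdhd1 and A2m came next, at 0.42 to 0.53. This ranking does not use the unexposed libraries, and not all of these genes share the step of the members. A2m went the other way, from 1959 CPM in control and 1878 in AT to 14.5 in HCB and 20.7 in AT + HCB. Amdhd1 had 31.8 CPM in control and 28.6 in HCB, and Gckr 102 and 123. Gk, Olr59 and Kynu were higher in HCB than in control. These likenesses are over 8 and 4 libraries that share 2 labels of HCB status, and describe level only.

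**Figure D5:**
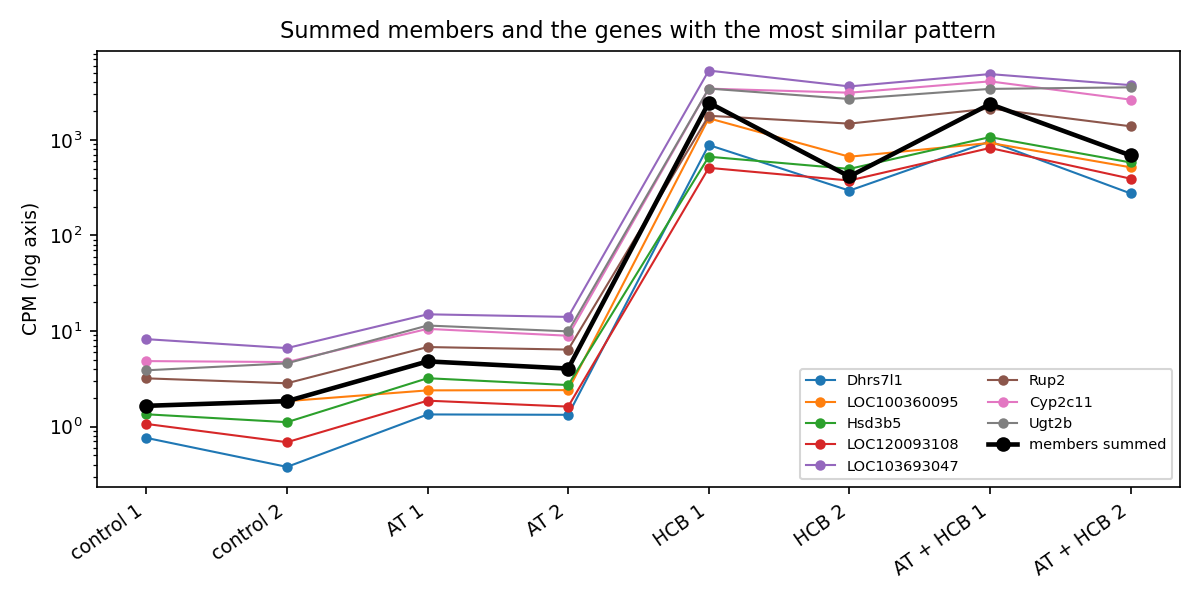
CPM (log axis) of the summed members (black) and of the 8 genes with the most similar profile in the 8 libraries; lines only join the points of a gene. All 9 profiles step up between the unexposed and the HCB-labelled libraries, and replicate 2 lies below replicate 1 in HCB and in AT + HCB for each of them except Ugt2b in AT + HCB.

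Hormone pathways of rat liver, not all of them named above for alpha-2u globulin, were looked at through lists of genes that are no members. Of 6 hormone receptors, 2 rose and 1 fell in HCB against control, where 13% of all genes rose and 13.9% fell. Ghr, the growth hormone receptor, rose by 2.57 ± 0.31 (SE, log2; edgeR adjusted p = 0.000235), from 128 to 760 CPM. Esr1, the estrogen receptor, rose from 0.186 to 39.2 CPM, and Thra, a thyroid hormone receptor, fell from 19.6 to 9.15 CPM. Nr3c1, the glucocorticoid receptor, stood at 217 and 309 CPM and was not called, nor were Thrb and Insr. The median log2 difference of the list was 0.40, beside −0.09 over all genes. Between AT + HCB and AT, 2 of the 6 rose (Ghr and Esr1) and none fell, where 12.6% of all genes rose and 15% fell.

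Of 8 genes of growth hormone signalling, 2 rose and 1 fell in HCB against control, with a median log2 difference of 0.78, where 26.9% of all genes were called in either direction. In AT + HCB against AT, 3 of the 8 rose and none fell (median 0.67), where 27.6% of all genes were called. Igf1, the growth factor that growth hormone induces in liver, rose from 436 to 2389 CPM, and Igfals, its carrier subunit, from 30.4 to 318 CPM. Socs2, a feedback inhibitor of the pathway, fell from 38.7 to 5.75 CPM; between AT and AT + HCB it stood at 33.7 and 17.3 CPM and was not called (edgeR adjusted p = 0.289). Stat5b, the main signal carrier, had 86.5 and 60.9 CPM and was not called. Of 11 liver transcription factors (median 0.51) 3 were called, a share near that of all genes, and these rose: Hnf4a by 0.94 ± 0.31 on the log2 scale (SE; edgeR adjusted p = 0.0435), Cebpb by 1.43 ± 0.26 and Bcl6, a repressor of growth hormone targets with more expression in males, by 2.89 ± 0.48. Onecut1, whose core motif was in 6 of the 7 promoter windows, had 45.8 and 22.4 CPM and was not called.

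Sex-biased liver genes and other lipocalins were listed beside the members, and their counts stand beside 13% of all genes higher and 13.9% lower in HCB against control. Of 8 rows of male-predominant genes, with 2 rows for Cyp2a2, 6 rose in HCB against control and none fell, with a median log2 difference of 5.49. Of 6 female-predominant genes 3 rose and 1 fell (median 2.49). Of 7 other lipocalins tested (median 0.86), 3 rose: Orm1, an acute phase carrier, from 6.69 to 512 CPM, Ambp from 1167 to 2709 CPM and the complement subunit gene C8g from 84.8 to 204 CPM. Lcn2, the iron-carrier binding lipocalin of neutrophils and injured tissue, fell from 14.6 to 4.73 CPM. In AT + HCB against AT, 7 of the 8 male-predominant rows rose, 2 female-predominant genes rose and 1 fell, and 3 lipocalins rose and 2 fell, where 12.6% of all genes rose and 15% fell. The summed Y-linked, fetal, neutrophil and erythroid genes given above differed between the same libraries, and their part in these calls was not tested. In the atorvastatin contrasts no gene of these lists was called by edgeR.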

How the data were processed

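RNA was sequenced in 8 liver libraries of separate rats. Per the submitters' processing notes, the authors trimmed reads with fastp 0.23.4, aligned with STAR 2.7.10b and used DESeq2 1.42.1 in R 4.3.2. Per the file headers, the deposited counts are whole reads per gene from featureCounts 2.0.6 on Ensembl release 111 (mRatBN7.2), with no option for strand, multi-mapping or overlapping features. Alignments of all classes sum to 508 M (M, 1e6) against 249 M stated reads, so mates appear to be counted singly. Assigned reads were 29.4 to 52.0 M per library, 10.4% to 21.0% of alignments were multi-mapping, 2.24% to 4.02% ambiguous and 7.46% to 34.0% outside exons (higher in each unexposed library). Floors and intervals cover counting error only. The exon length, also deposited, served for levels per kb. No count column was left out (0).

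The test was that of edgeR 4.0.16 in R 4.3.3 (TMM, filterByExpr, quasi-likelihood test, 1 model of 4 groups, 4 residual degrees of freedom; Benjamini-Hochberg over 16591 genes, threshold 0.05; common biological coefficient of variation 0.295). The members, lists and naming rule (all members, all rows within 500 kb, 8 genes of most similar profile per ranking, up to 4 genes per list) were chosen with earlier results of these data known. One item of the hormone receptor list is not reported here. Scripts were tested on simulated data. Alternatives were DESeq2 1.42.0, its size factors, 2 other filters, a replicate block, halved counts and each library left out; the sum over 12 rows and the removal of 2 libraries were added after seeing the data. Promoter windows came from RefSeq (GRCr8) and were aligned with Biopython 1.88; all 4 members matched a RefSeq gene by symbol and 2 had a window. Figures used matplotlib 3.10.9.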

Additional observations from a re-analysis of the deposited data

How the results depend on the processing

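Atorvastatin with HCB against HCB alone reversed its small positive value for the summed members to −0.68 without HCB replicate 2, −1.05 without AT + HCB replicate 1 and −0.21 with all 12 rows summed (chosen after seeing the data), and ran up to 1.89 without HCB replicate 1. With single libraries left out, Obp3 ran from −1.01 to 2.06, with −0.62 without HCB replicate 2; Mup4 from −1.71 to 0.96; Mup4-ps3 from −0.92 to 1.22, with −0.55 without HCB replicate 2; Mup4-ps5 from −2.24 to −0.88. Under DESeq2 and with no filter Mup4-ps5 was called, at −1.74 and −1.71. It stayed uncalled with the DESeq2 size factors, the other filter, the replicate block and halved counts. With a library left out only the size for Mup4-ps5 is given, with no call, since a group then has a single library. Against control, the atorvastatin values of Obp3 and the sum kept their direction and stayed uncalled under each alternative. That of Mup4-ps5 rests on 9 reads over the control and 12 over the AT libraries, so nothing is read from its direction.

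Numbers of genes called, over the whole table, moved more. Atorvastatin against control had 3 with DESeq2, 76 with no filter and 0 to 33 with a library left out. Atorvastatin with HCB against HCB had 44, 179 and 0 to 6, and the interaction 5, 70 and 0 to 5. HCB against control had 4466 and 2164 to 4622 with a library left out, and AT + HCB against AT 4571 and 1902 to 4819. Without both libraries with most reads outside exons (chosen after seeing the data) these were 2108 and 2147. The cause was not tested.

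The main fit did not pair replicate numbers. Same-numbered deviations correlated at 0.27 for control and AT and near 0 otherwise. Reads outside exons were 27.7% and 34.0% in control 1 and AT 1, against 15.3% and 19.5% in control 2 and AT 2. A factor shared by replicate number was not tested. With the replicate block the HCB comparisons had 4282 and 4398 calls, the atorvastatin contrasts 0, and the summed members 1.29 and 0.21.

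The limits lie in the counts: multi-mapping and shared-exon reads of near-identical copies were not counted, 2 animals a group leave wide intervals, and a level of 0 means fewer than 6 reads over a group.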
